A study of Arachis hypogaea with 30 samples.

Results

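The change in gene expression between 12 and 24 h of salt was measured in seedlings of HY9115, a cultivar of the allotetraploid peanut (Arachis hypogaea) that the labels describe as sensitive to salt. The comparison sets 3 libraries taken after 24 h in 100 mM NaCl against 3 taken after 12 h in the same solution, 6 of the 30 libraries of the series. The 42311 genes with an FPKM (counts scaled by gene length and library size) of at least 1 in at least 3 of the 30 libraries were tested, of 82955 in the deposited table. Plants were germinated for a week, moved to hydroponic boxes, given salt at the stage with 3 leaves, and harvested whole. The salt tolerant cultivar HY33, sampled in the same way at the same times, served as the comparison for the step. Both ends of the step lie in salt and water was sampled only at 0 h, so longer salt, age and time of day cannot be told apart. The 0 h and 24 h samples lie 1 day apart, and the clock time of harvest is not given in the sources used here.

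Plants meet salt first as a loss of water uptake and later as a build-up of sodium and chloride in the leaves. Abscisic acid, the main drought hormone, closes stomata and drives genes for osmolytes, water channels, ion transport and detoxification. The circadian clock runs beneath this response: morning repressors of the LHY type, daytime pseudo-response regulators and evening components such as GIGANTEA repress or activate each other in turn, and they time much of photosynthesis and metabolism. Germinating peanut seedlings also draw on oil and storage protein in the cotyledons until the leaves take over.

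The 12 h libraries held 13072324 to 16064231 counts and the 24 h libraries 15339489 to 18182764. Within groups, the correlation of log-scale FPKM across genes was 0.981 to 0.987, and no replicate pair matched within sampling noise. Replicate 3 at 12 h stood somewhat apart, with a chi-square per degree of freedom of 8.07 and 7.47 against the other 12 h libraries, whereas the remaining pair gave 3.4. The labels call the replicates biological without saying whether they are separate plants or pools, so the p-values cover the spread among these libraries, part of which may be technical. The cultivar labels of HY9115 at 12 and 24 h held up. For 24 h, 64 genes were chosen with at least 2 FPKM in all 15 HY33 libraries. They also had under 0.3 FPKM in the 9 HY9115 libraries at 0, 3 and 12 h. Of these, 63 had a mean under 0.5 FPKM in HY9115 at 24 h. Of 63 genes chosen likewise with the 12 HY9115 libraries of other times, all 63 stayed under that limit at 12 h. The HY33 labels served to choose the genes and were not checked. The markers of the whole plant were present, with green shoot genes at 1.2 to 1.31% of counts at 12 h and 1.65 to 1.86% at 24 h, cotyledon genes at 0.264 to 0.283% and 0.149 to 0.169%, and root genes at 0.0463 to 0.0562% in the 6 libraries.

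Between 12 and 24 h, 1051 genes rose and 1318 fell by edgeR's quasi-likelihood test, where a called gene has a Benjamini-Hochberg adjusted p below 0.05 and changes at least by 1 in log2. Together these are 5.60% of the genes tested, 2.48% higher and 3.12% lower. These shares are the background for the counts of called genes that follow. The median log2 change was 1.39 among genes that rose, -1.38 among those that fell and 0.014 over all genes. Without the fold limit 12777 genes passed the adjusted p, 6357 of them higher, and 222 genes rose and 262 fell by at least 2 on the log2 scale. The 3 and 3 libraries did not overlap in 1018 of the genes that rose (96.9%) and 1230 of those that fell (93.3%), against 40.1% of all genes, which describes the calls and does not test them. Calls took 5.47% of the genes on chromosomes 1 to 10 and 5.61% of those on chromosomes 11 to 20, the 2 subgenomes, whose near-identical gene pairs may share reads, so the split of counts within a pair is uncertain. The share of calls that were higher was 44.4%, against 40.3% with relative log expression size factors and 58.4% with TPM scaling, which moved the median of all genes to 0.134.

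**Figure D1:**
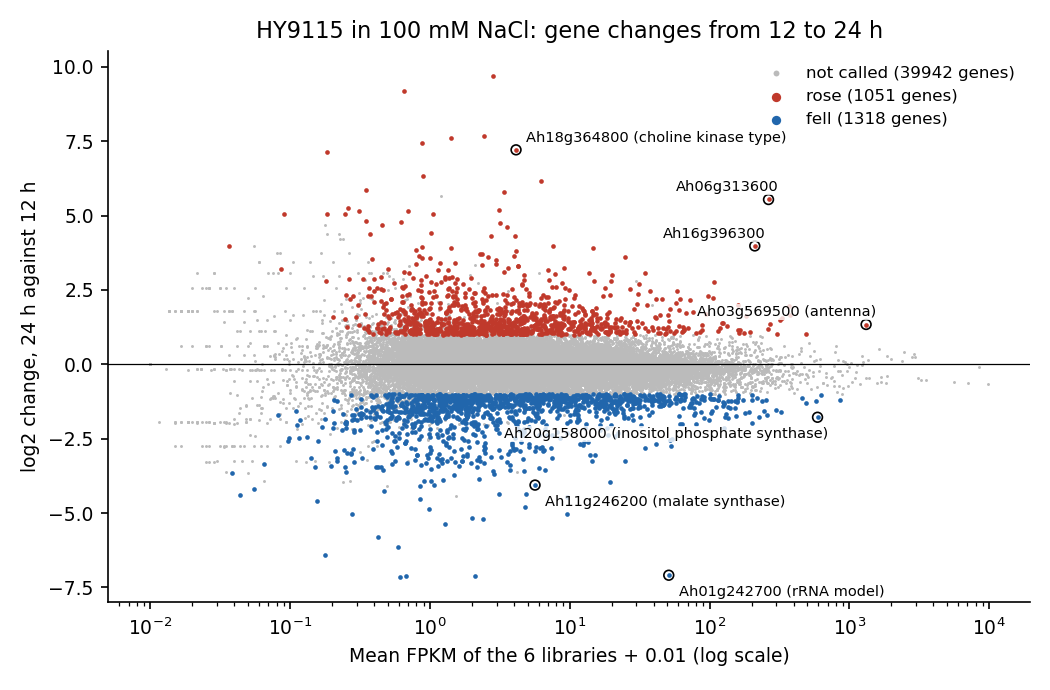
Each point is 1 of 42311 genes, with the mean FPKM of the 6 HY9115 libraries plus 0.01 on a log axis and the log2 change from 12 to 24 h on the other. The 1051 genes that rose (red) and 1318 that fell (blue) lie at all levels, and the 7 labelled genes are named in the text.

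The genes that rose had been at their lowest median level at 12 h. Over these 1051 genes the median of the mean FPKM in HY9115 was 3.19 at 0 h, 4.49 at 3 h, 1.44 at 12 h, 4.38 at 24 h and 2.08 at 48 h. For the 1318 genes that fell it was 2.34 at 0 h, 2.97 at 3 h, 4.51 at 12 h, 1.51 at 24 h and 1.52 at 48 h. The 12 h and 24 h levels chose these genes, so only the other times describe them independently.

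Gene models annotated as ribosomal RNA made up part of the falls. Of 140 such models tested, 115 fell (82.1%), with a median log2 change of -2.71, and in HY33 64 of them fell, with a median of -1.25. Their share of counts in HY9115 was 0.0929, 0.175 and 0.085% at 12 h, against 0.0204, 0.0193 and 0.0189% at 24 h and 0.0111 to 0.0141% at 0 h. The model Ah01g242700 went down from 45.7, 190.5 and 68 FPKM to 0.76, 0.7 and 0.86 FPKM. All 3 of the 12 h libraries thus stood above every other library of HY9115. Of 17 genes of plastid genome type 6 fell and 1 rose. The libraries were made from poly(A) RNA, per the labels' protocols, and the part of rRNA carry-over in the other results was not tested. Without both groups 1050 genes rose and 1197 fell.

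**Figure D2:**
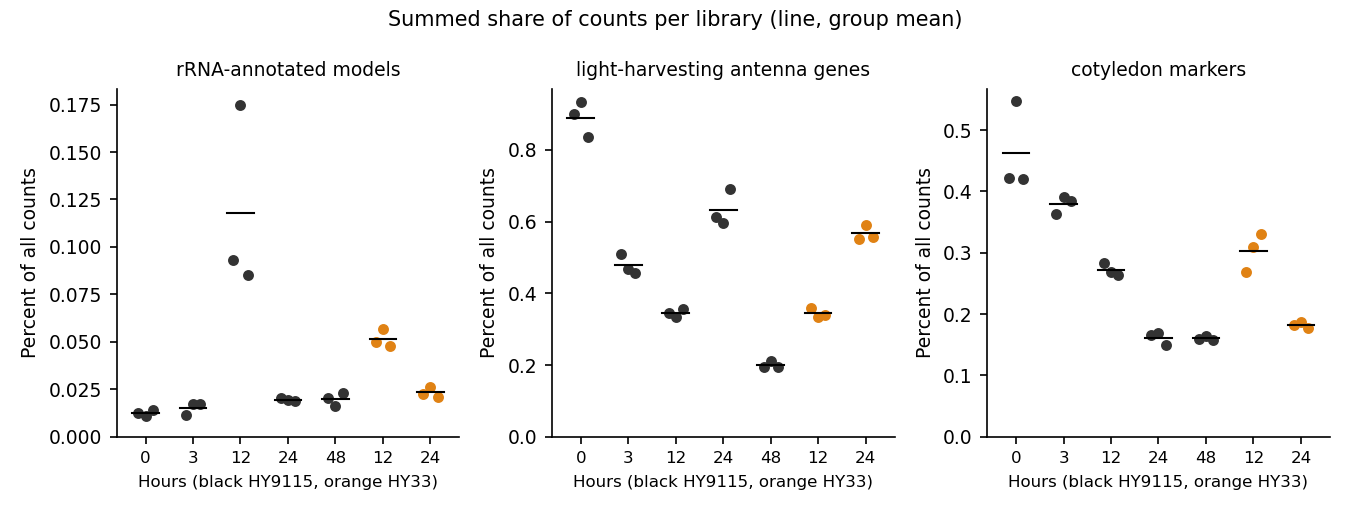
Summed share of all counts per library (points) and group mean (lines) for rRNA-annotated models, light-harvesting antenna genes and cotyledon markers, at 5 times in HY9115 (black) and at 12 and 24 h in HY33 (orange). The rRNA share was highest in HY9115 at 12 h, the antenna share was higher at 24 h than at 12 h in both cultivars, and the cotyledon share was lower.

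Of the 4 largest rises in FPKM, 2 were in genes without annotation, and the antenna gene and catalase given further on were the others. Ah06g313600 (chromosome 6, 99135211 to 99136134; positions are those of the deposited table, whose genome build is not named in the sources used here), which has no annotation, stood at 9.63, 10.9 and 11.7 FPKM at 12 h and at 526, 451 and 576 FPKM at 24 h. The groups lay far apart, with a log2 change of 5.54 ± 0.15 (SE, adjusted p = 7.4e-24). Its mean was 166 FPKM at 0 h and 1067 FPKM at 3 h, so 12 h was the low point of its course. Ah16g396300 (chromosome 16, 130108923 to 130110243), annotated to light response and circadian rhythm, followed the same course. It had 22.8, 24.1 and 25.7 FPKM at 12 h and 395, 365 and 431 FPKM at 24 h, a log2 change of 3.98 ± 0.12 (adjusted p = 5.6e-23). The unannotated Ah03g529500 moved from 139, 139 and 162 FPKM to 582, 575 and 622 FPKM, again without overlap. Among annotated genes with a mean of at least 5 FPKM at the higher time, others with large rises were a protein kinase (Ah14g362100, log2 change 3.98), a haem-binding monooxygenase (Ah03g433400, 3.82), a chaperonin of the GroEL type (Ah15g312700, 3.63) and a terpene synthase (Ah10g044900, 3.18).

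Ah18g364800 (chromosome 18, 118321915 to 118328225), annotated as a choline and ethanolamine kinase of phosphatidylcholine synthesis, was nearly silent at 12 h. It had 0.04, 0.09 and 0 FPKM at 12 h, from 3 counts in all, and 9.25, 7.95 and 7.4 FPKM at 24 h. The ratio of summed counts per library total was 172, with a 95% counting interval of 58.5 to 836 that covers counting error only. In HY9115 the gene was low from the start, with a mean of 0.61 FPKM at 0 h and 0.3 FPKM at 3 h. At 48 h its mean was 2.79 FPKM. HY33 held 10.4 to 13.7 FPKM at 12 h and 9.7 to 14 FPKM at 24 h.

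Clock genes were called at shares above the background. Of the 30 tested, 8 rose (26.7%) and 4 fell (13.3%), their median log2 change was 0.53, and 22 had a positive change. The 4 that fell were all of the LHY type, the morning repressor of the clock. Ah02g050000 (chromosome 2, 5820056 to 5826748) fell from 141, 127 and 116 FPKM to 33.4, 32.5 and 32.9 FPKM, a log2 change of -2.01 ± 0.08 (adjusted p = 7.9e-20). Its counterpart on chromosome 12, Ah12g057500, fell from 105, 98.9 and 88.5 FPKM to 25.3, 25.2 and 24.4 FPKM. The libraries of both times kept well apart in each, and the other LHY-type genes, Ah16g168700 and Ah06g015900, changed by -1.26 and -1.18. In 0 h water these 4 genes had mean levels of 99.7, 81.9, 109.9 and 102.3 FPKM, each between its 12 h and 24 h means.

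The clock genes that rose act later in the day. Ah03g026700 (chromosome 3, 2337359 to 2345816), a pseudo-response regulator of the family that represses LHY, rose from 15.2, 13.4 and 12.7 FPKM to 57.8, 52.7 and 61.9 FPKM, a log2 change of 2.00 ± 0.09 (adjusted p = 4.1e-18). The pseudo-response regulators Ah02g048300, Ah12g055700 and Ah13g046000 rose by 1.42, 1.24 and 1.22. Both genes annotated as FKF1, a blue light receptor that times flowering in Arabidopsis, rose with log2 changes of 1.48 (Ah03g535300) and 1.46 (Ah13g564500). The FKF1 genes had averaged 1.85 and 1.57 FPKM at 0 h and reached 21.1 and 21 FPKM at 24 h. Of 4 GIGANTEA genes, Ah19g481200 and Ah09g434600 rose (1.47 and 1.25), while Ah05g462700 and Ah15g560100 changed by 0.53 and 0.37, under the fold limit. Over the wider circadian rhythm pathway 11 of 91 genes rose and 6 fell, led by a pair on chromosomes 2 and 12. Ah02g037100 went from 2.59, 2.21 and 1.83 FPKM to 15.6, 13.9 and 16.4 FPKM, and Ah12g035200 changed by 2.51.

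**Figure D3:**
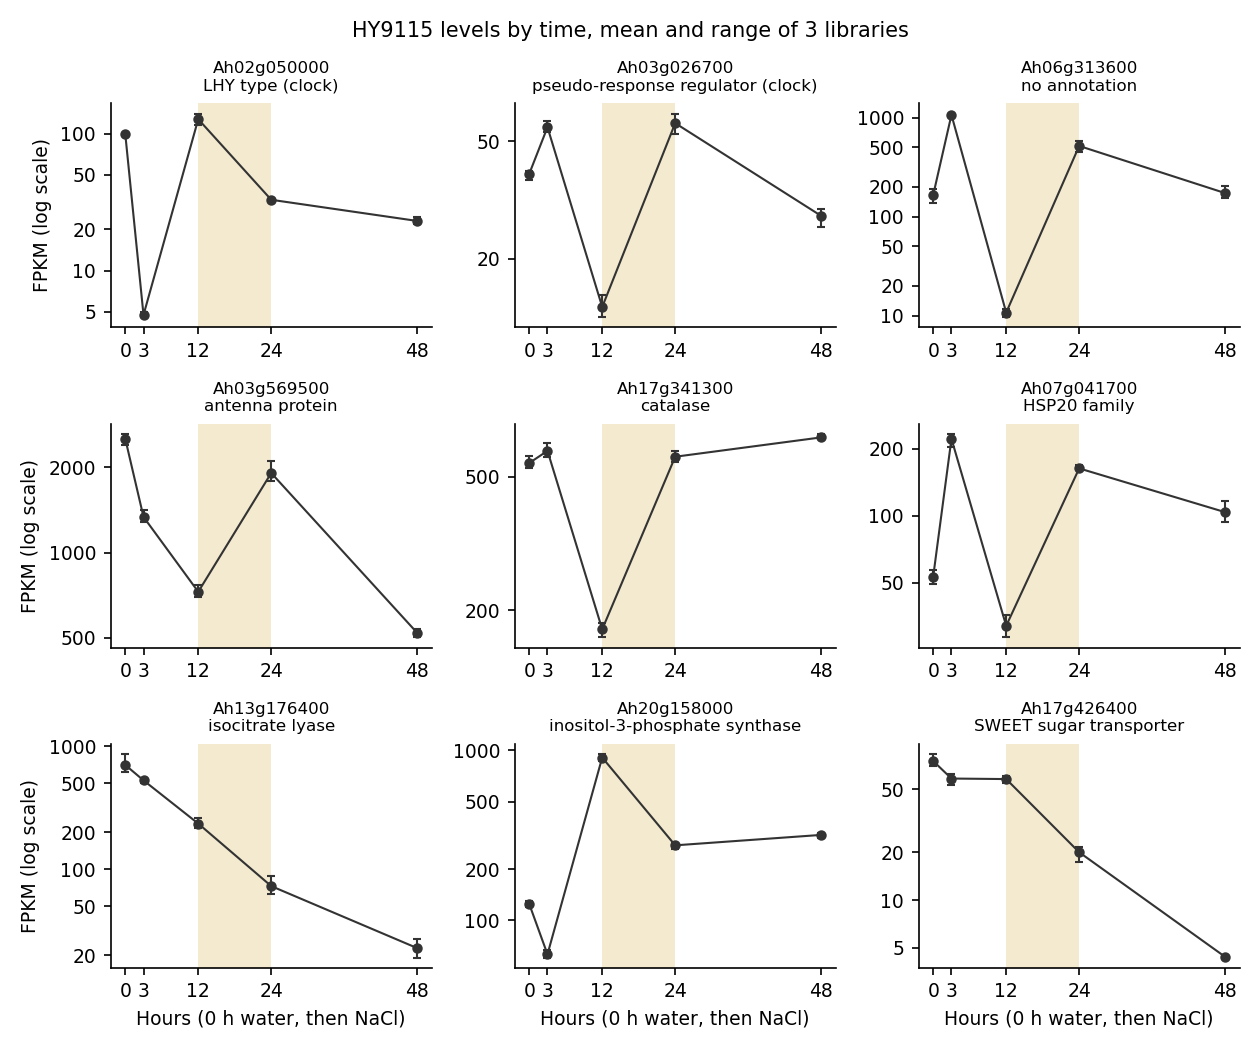
FPKM on log axes for 9 genes of HY9115 in 0 h water and after 3, 12, 24 and 48 h of NaCl, as the mean and range of 3 libraries, with the 12 to 24 h step shaded. The pseudo-response regulator, Ah06g313600, the catalase and the HSP20-family gene have their lowest mean at 12 h, and inositol-3-phosphate synthase has its highest.

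Antenna proteins bind chlorophyll and pass light energy to the photosystems. Of 34 antenna genes 10 rose (29.4%), with a median log2 change of 0.51. None fell by edgeR or by DESeq2, and none was lower at an unadjusted p under 0.05 either. Ah03g569500 (chromosome 3, 139286232 to 139287026), the most abundant of those called, went from 770.2, 696 and 715 FPKM to 1827, 1797 and 2106 FPKM, a log2 change of 1.34 ± 0.08 (adjusted p = 4.6e-15). Ah08g364200 went from 47, 42.8 and 40.1 FPKM to 137, 126 and 172 FPKM, and in both genes the 24 h libraries all lay above the 12 h libraries. The summed antenna share of counts was 0.333 to 0.357% at 12 h, 0.595 to 0.692% at 24 h, 0.836 to 0.933% at 0 h and 0.195 to 0.211% at 48 h. The wider green shoot markers moved with it: their share of counts was 1.2 to 1.31% at 12 h and 1.65 to 1.86% at 24 h, and 12 of 76 rose. None of them fell by edgeR or DESeq2, with 3 lower at an unadjusted p under 0.05, and the list includes antenna genes. The part of a change in the amount of green tissue in the antenna rise was not tested. In RNA of whole seedlings, fewer cells of a type and less RNA per cell cannot be told apart.

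Of 82 photosystem and electron transport genes 3 rose and 1 fell, with a median of 0.18, shares close to the background or under it. The rises were a ferredoxin-NADP+ reductase (Ah11g162800, log2 change 1.73) and 2 genes for the same photosystem I subunit (Ah06g003600, 1.55, and Ah16g192900, 1.08). Of 111 porphyrin and chlorophyll genes 5 rose (4.5%), with a median of 0.20, and no gene fell by edgeR or DESeq2, with 10 lower at an unadjusted p under 0.05. Among them were a protochlorophyllide reductase, which makes chlorophyll in the light (Ah13g240000, 1.12), and 2 chlorophyllases, which degrade it (Ah06g139600, 1.99, is the higher in level). NADP-malic enzyme genes of the carbon fixation pathway rose in a pair: Ah05g328900 from 22.7, 21.4 and 20.4 FPKM to 88.6, 97.8 and 96.5 FPKM, and Ah15g466200 by 1.86.

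Surface lipid genes rose at a share well above the background. Of 114 suberin, cutin and wax genes 17 rose (14.9%) and 2 fell, although the list's median was 0.08. The genes that rose included 5 β-ketoacyl-CoA synthases, which lengthen fatty acids for wax, and 6 of the alkane-forming aldehyde oxygenase type. The synthase Ah09g417000 went from 6.18, 5.41 and 7.18 FPKM to 22.5, 22.6 and 22.4 FPKM, a log2 change of 1.80 ± 0.10 (adjusted p = 1.8e-15). The synthases Ah20g361900 and Ah10g282500 rose by 1.24 and 1.10. The alkane-forming genes were low: the highest, Ah06g355300, had 1.92, 0.77 and 1.51 FPKM at 12 h and 5.73, 5.31 and 5.41 FPKM at 24 h.

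Some genes for the use of seed reserves fell, in RNA of whole seedlings that does not place the change in an organ. Of 46 cotyledon markers 7 fell (15.2%), with a median of -0.44. None rose by edgeR or DESeq2, and 1 was higher at an unadjusted p under 0.05. Isocitrate lyase, the first enzyme of the glyoxylate cycle that turns seed oil into sugar, fell in both its genes. Ah13g176400 (chromosome 13, 18133908 to 18139458) had 259, 217 and 228 FPKM at 12 h and 88.1, 63.4 and 67.3 FPKM at 24 h, a log2 change of -1.74 ± 0.19 (adjusted p = 9.6e-09). Its mean ran from 703 FPKM at 0 h to 22.9 FPKM at 48 h, so in this gene the step was part of a longer decline. Malate synthase, the next enzyme of the cycle, fell further in Ah11g246200, from 14.5, 10.8 and 6.55 FPKM to 0.81, 0.66 and 0.5 FPKM (-4.06 ± 0.30). The groups did not overlap in either gene, and the list's share of counts went from 0.264 to 0.283% at 12 h to 0.149 to 0.169% at 24 h.

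Sugar genes moved both ways, with 7 of 131 higher and 9 lower. Ah17g426400, a SWEET sugar exporter, fell from 59.2, 60.4 and 54.8 FPKM to 21, 21.6 and 17.5 FPKM, a log2 change of -1.59 ± 0.09 (adjusted p = 3.3e-15). Invertases, which split sucrose, fell in Ah15g122000 (-2.78) and Ah05g117200 (-1.86), while Ah08g117000, annotated to the same enzyme class, rose by 1.15. A starch phosphorylase, Ah06g434000, rose from 6.06, 5.24 and 3.88 FPKM to 14.1, 12.3 and 12.9 FPKM. The 12 h and 24 h libraries did not overlap in any of these 5 genes. Of 36 fermentation genes 4 fell (11.1%), with a median of -0.32, and none rose by edgeR or DESeq2 or was higher at an unadjusted p under 0.05. They were 2 alcohol dehydrogenases and 2 pyruvate decarboxylases, the enzymes that make ethanol from pyruvate. The most abundant, the alcohol dehydrogenase Ah10g258500, had 10.8, 13 and 8.39 FPKM at 12 h and 2.34, 1.72 and 3.5 FPKM at 24 h.

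Abscisic acid genes were called in small numbers, in metabolism at a share above the background and in signalling under it. In synthesis, 2 genes for zeaxanthin epoxidase, which feeds the pathway from carotenoids, rose: Ah11g125200 from 7.8, 8.25 and 7.24 FPKM to 20.5, 19 and 21.9 FPKM, and Ah01g118600 by 1.05. With a 9-cis-epoxycarotenoid dioxygenase of low level, 3 of 18 metabolism genes rose (16.7%), and at an unadjusted p under 0.05 8 were higher and 7 lower. The list's median was 0.32, and -0.27 among genes with at least 5 FPKM in 3 libraries. In signalling 2 of 76 genes fell (2.63%, under the background) and none rose by edgeR or DESeq2, with a median of -0.20. At an unadjusted p under 0.05, 9 signalling genes were higher and 32 lower. An abundant gene annotated as binding abscisic acid, Ah11g430600, fell from 655, 739 and 1017 FPKM to 366, 399 and 301 FPKM, still well above its 0 h mean of 74.6 FPKM.

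Among osmolyte genes the most abundant to fall was an inositol enzyme. Ah20g158000 (chromosome 20, 21695053 to 21698886), an inositol-3-phosphate synthase that starts inositol synthesis, fell from 953, 901 and 872 FPKM to 264, 279.9 and 284 FPKM, a log2 change of -1.78 ± 0.08 (adjusted p = 1.2e-18). It stayed above its 0 h mean of 124 FPKM. Among raffinose and trehalose genes 3 of 59 rose and 4 fell, and genes annotated to the raffinose synthase family moved apart. Ah17g014000 rose from 14.4, 17.8 and 17 FPKM to 40.9, 37.8 and 39.9 FPKM, and Ah06g109100 fell from 19.8, 29.9 and 29.9 FPKM to 5.96, 10.3 and 3.58 FPKM. A galactinol synthase, Ah16g113100, which supplies that pathway, fell by 1.15 on the log2 scale. Of 23 proline genes none was called in either direction by edgeR or DESeq2, with 3 higher and 10 lower at an unadjusted p under 0.05 and a median of -0.20.

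Ion and water transport showed no single direction. Of 101 sodium and potassium transport genes 5 rose and 5 fell, with a median of 0.12. The potassium-proton antiporters Ah12g007000 and Ah08g000800, annotated to plastid functions, rose by 1.54 and 1.42, and the outward potassium channel Ah16g103100 fell by 1.16. Of 48 aquaporins, the water channels, 2 rose and 4 fell (8.33%), with a median of -0.30. With TPM scaling 4 rose and 2 fell, with a median of -0.18, so the split of calls depended on the scaling. Ah18g017900 went up from 65.8, 87.7 and 71.7 FPKM to 182, 215 and 179 FPKM, whereas Ah08g166400 went down from 28.1, 22 and 22.6 FPKM to 9.13, 10.1 and 9.13 FPKM.

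Among antioxidant enzymes catalase stood out. Ah17g341300 (chromosome 17, 103350615 to 103354568) rose from 184, 177 and 166 FPKM to 551, 596 and 571 FPKM, a log2 change of 1.65 ± 0.07 (adjusted p = 2.4e-19), and Ah08g028000 rose by 1.14. Catalase removes hydrogen peroxide in peroxisomes. Its 24 h level in Ah17g341300 was close to the 0 h mean of 548 FPKM, and the 12 h libraries lay below all others. Of the whole list of 76, 3 rose and 3 fell. Class III peroxidases of the cell wall fell in 10 of 98 (10.2%) and rose in 2. With TPM scaling 5 of the 98 fell and 4 rose, with a median of 0.00, so the excess of falls depended on the scaling. Glutathione S-transferases, which detoxify by adding glutathione, fell in 7 of 109 (6.42%) and rose in 4. Ah09g313600 fell from 107, 116 and 117 FPKM to 34.8, 54.2 and 38.4 FPKM (-1.47 ± 0.14), while Ah07g299100 rose from 24.5, 22.2 and 27.7 FPKM to 63, 57.7 and 59.8 FPKM.

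Heat shock genes changed at about the background rate, 5 of 165 in each direction, but 3 of those that rose were small heat shock proteins of the HSP20 family. Ah07g041700 went from 31.5, 28.3 and 35.9 FPKM to 161, 160.1 and 169 FPKM, a log2 change of 2.30 ± 0.10 (adjusted p = 1.1e-18), and Ah17g046800 rose by 2.23. Another HSP20-family gene, Ah09g174200, fell by 1.17 on the log2 scale. The heat shock factors Ah15g126000 and Ah05g220000 fell by 1.59 and 1.44 on that scale. Of 117 calcium sensor genes 7 fell (5.98%), all of the calmodulin-like type, among them Ah01g059900, from 76.9, 71.9 and 69.8 FPKM to 36.7, 20.5 and 31.6 FPKM. No sensor rose by edgeR or DESeq2, with 13 higher at an unadjusted p under 0.05, and the list's median was -0.09. With TPM scaling the median was 0.03 and 4 sensors fell, so the excess of falls depended on the scaling.

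**Figure D4:**
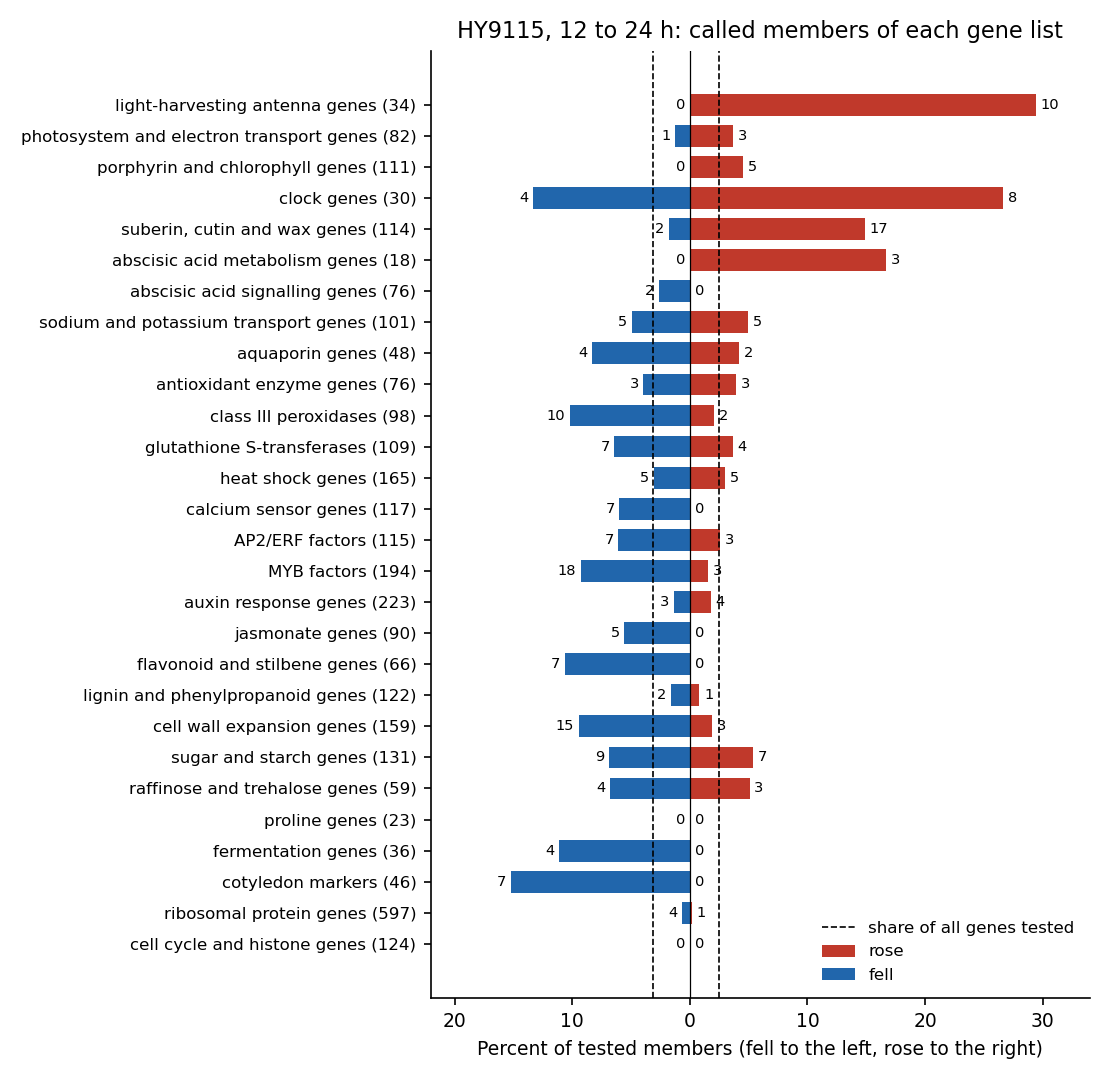
Percent of tested members that rose (red, right) or fell (blue, left) in 28 gene lists, with the number of called members at each bar, the number tested in parentheses and the share of all genes called as dashed lines. Antenna, clock, abscisic acid metabolism and surface lipid lists reach farthest to the right, and cotyledon, clock, fermentation and flavonoid lists farthest to the left.

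MYB factors had more falls than the other 2 families of regulators counted. Of 194, 18 fell (9.28%) and 3 rose, with a median of -0.26. Ah01g354500 (chromosome 1, 101098523 to 101099990), annotated to flavonol synthesis, fell from 5.31, 4.33 and 6.35 FPKM to 0.75, 0.34 and 0.15 FPKM, a log2 change of -3.68 ± 0.42 (adjusted p = 4e-08). Of 66 flavonoid and stilbene genes 7 fell (10.6%), with a median of -0.23, and none rose by edgeR or DESeq2, with 5 higher at an unadjusted p under 0.05. Chalcone synthase starts the flavonoid branch of phenylpropanoid metabolism, and Ah16g391100, annotated to it, fell by 1.22 on the log2 scale. Ah14g312300 and Ah04g265600, which carry a jasmonate hydroxylation term beside the flavonoid one, fell by 1.33 and 1.38. The rest were 2 flavonol synthases, a stilbene synthase and another gene with both terms. AP2/ERF factors fell in 7 of 115 (6.09%) and rose in 3, but 6 fell and 6 rose with TPM scaling. WRKY factors rose in 2 of 27 and fell in 1, counts too small to set against the background.

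Cell wall expansion genes had more falls than rises. Of 159 cell wall expansion genes 15 fell (9.43%) and 3 rose, with a median of -0.07 (0.05 with TPM scaling). Among those that fell were xyloglucan-modifying enzymes such as Ah11g480700 (-1.72), pectinesterases such as Ah03g259400 (-1.70) and pectate lyases such as Ah11g237700 (-1.36), enzymes that loosen or trim the wall. Of 46 cellulose synthase superfamily genes 1 rose, with a median of 0.25, and none fell by edgeR or DESeq2, with 4 lower at an unadjusted p under 0.05. Of 223 auxin response genes 4 rose and 3 fell. Of 597 ribosomal protein genes 1 rose and 4 fell, the latter all on unplaced scaffolds. Of 124 cell cycle and histone genes none was called by edgeR or DESeq2, with 16 higher and 25 lower at an unadjusted p under 0.05.

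HY33 went through the same step in its own libraries, with 1099 genes higher and 1518 lower, 6.19% of those tested (2.60% and 3.59%). Of the HY9115 calls, 885 (37.4%) were called in the same direction in HY33, which is 33.8% of the HY33 calls, and 22 and 7 genes were called in opposite directions. The HY33 change was above 0 for 84.6% of the genes that rose in HY9115, for 13.2% of those that fell and for 49.3% of all genes. The difference between the steps was called for 2100 genes (4.96%), 1248 of them with the HY9115 change above that of HY33 (2.95%) and 852 below (2.01%). That split of 59.4% higher rested on the scaling, since it was 70.1% with total counts and 83.6% with TPM scaling. Leaving out replicate 3 of HY9115 at 12 h lowered the count to 1662, 1049 of it higher.

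Of 30 clock genes none, and of 34 antenna genes 1, had a called difference between cultivars. The share over all genes was 4.96%, so such small counts do not set these lists apart. Several clock genes that rose did so by more in HY9115, under the fold limit. The pseudo-response regulator Ah03g026700 changed by 2.00 in HY9115 and 1.48 in HY33, a difference of 0.52 ± 0.12 (SE, adjusted p = 0.0028). The FKF1 gene Ah03g535300 differed by 0.55 (adjusted p = 0.0046) and the GIGANTEA gene Ah19g481200 by 0.53 (adjusted p = 0.00055), and the median difference over the clock list was 0.21. The LHY-type gene Ah02g050000 changed by -2.01 in HY9115 and -2.03 in HY33, a difference of 0.02 ± 0.10 (SE), and the HSP20-family gene Ah07g041700 by 2.30 and 2.36, a difference of -0.06 ± 0.13. Glutathione S-transferases had 17 of 109 members with a called difference below HY33, and their median was -0.12 in HY9115 and 0.20 in HY33. With TPM scaling the HY9115 median was 0.00, and the HY33 median was not computed. Over all genes 453 were called below with TPM scaling, against 852. Flavonoid and stilbene genes had 8 of 66 called below with the reported TMM scaling, with medians of -0.23 in HY9115 and 0.20 in HY33. The malate synthase Ah11g246200 differed by -3.23 ± 0.37 (adjusted p = 2.4e-07). Inositol-3-phosphate synthase (Ah20g158000) fell in both, by 1.78 and 1.01, with a difference of -0.77 ± 0.10, under the fold limit. Cotyledon markers had 9 of 46 called above HY33, where 17 fell, and 4 below. Auxin response genes, with 4 rises in HY9115, had 22 in HY33, yet 5 and 4 of 223 had a called difference above and below.

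A small part of the difference lay in stretches of neighbouring genes, found by a running median of the level difference between the cultivars at 0 h. The 6 stretches hold 601 tested genes. Their median difference at 0 h, HY33 minus HY9115 in log2, was -1.29 on chromosome 14 and 0.639 on chromosome 4. It was only 0.289 and 0.301 on chromosomes 1 and 17. In the stretch of 201 genes on chromosome 14 the median HY33 change was -0.81, against -0.08 in HY9115, and 59 genes had a called difference. In that of 199 genes on chromosome 4 the medians were 0.56 and 0, with 37 called. The others ran from 2 of 39 genes called on chromosome 2 to 13 of 53 on chromosome 1, against 4.96% of all genes. Without the 6 stretches 1975 of the 2100 genes with a called difference remained.

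**Figure D5:**
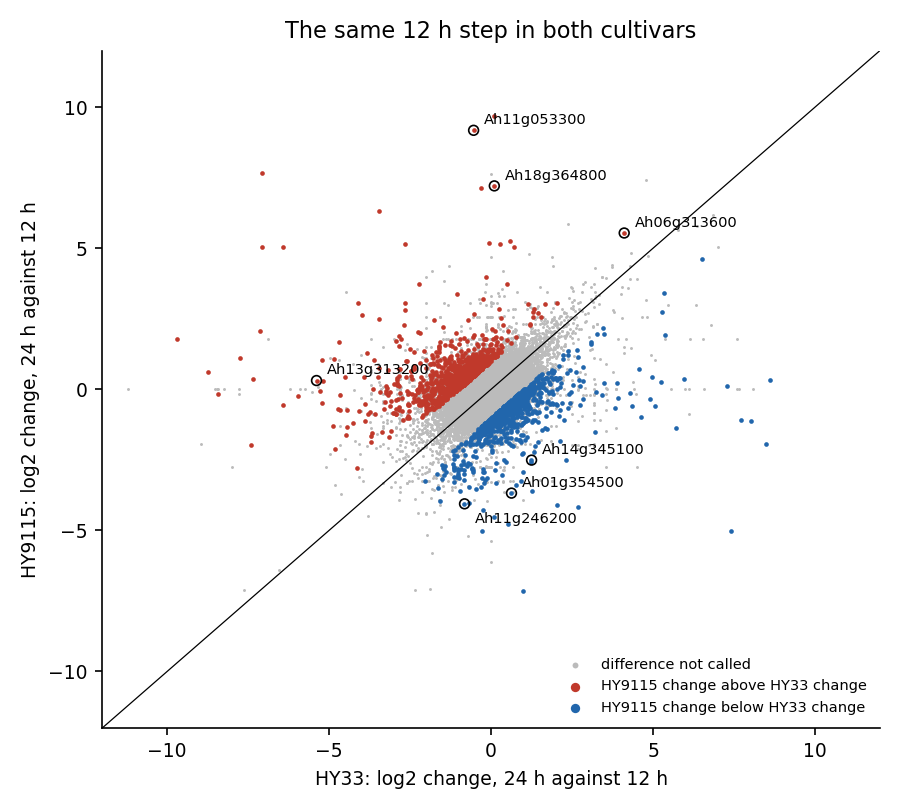
Log2 change from 12 to 24 h of 42311 genes in HY9115 against that in HY33, with the diagonal of equal change. Red and blue mark the 1248 and 852 genes whose change in HY9115 was called above or below that in HY33, and circles mark 7 genes named in the text.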

How the data were processed

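The 30 libraries, 3 for each of 2 cultivars at 5 times, came from poly(A) RNA of whole seedlings and were read as paired ends, per the labels' protocols. The authors trimmed with cutadapt 1.9.1, aligned with HISAT2 2.2.1, counted with HTSeq 0.6.1 and also used DESeq2, per the submitters' processing notes. The deposited table gives raw read counts per gene and FPKM values the authors derived from them. Each deposited FPKM matched the value recomputed from its count, gene length and library total within 0.005 in 100% of values. The strand setting of the counting is not given in the sources used here.

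Here the deposited counts of all 30 libraries were fitted together with edgeR 4.0.16 (R 4.3.3; TMM scaling, quasi-likelihood test), with a coefficient per group and no replicate block. Genes entered with 1 FPKM or more in 3 or more libraries, and the 42311 that passed held 99.57% of counts. p-values were Benjamini-Hochberg adjusted over all of them. A called gene has an adjusted p below 0.05 and changes by 1 or more in log2. DESeq2 1.42.0, other scalings, filters and fold limits, each library left out, and fits with the replicate number as a block were alternatives. Counts were also simulated with the same design from the fitted spread, with 100 genes changed by 1.5 (log2) and 100 by 3, low genes excepted. For the step 95% and 100% of the changed genes were called, with 0 false calls. For the difference between cultivars these were 84% and 98%, with 6 false calls. The simulation held few changed genes and no outlying library, so it does not give error rates for the real libraries.

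The 62 gene lists were built from the KO, GO and pathway identifiers in the deposited table, and 27351 tested genes carry one. The members and lists were chosen with earlier results of these data known. Genes were named by fixed rules. These took the 12 largest called changes per direction among annotated genes averaging at least 5 FPKM at the higher time, without overlap, up to 3 called members per list and direction above that floor, the 6 largest called cultivar differences per direction, and the 4 largest FPKM changes per direction. After seeing the data, the largest falls were also taken without rRNA models, and further members of the clock list were named. Ratios of summed counts carry 95% counting intervals, and a gene with 0 counts in a group is bounded by 3 counts over the group. Both cover counting error only.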

Additional observations from a re-analysis of the deposited data

Results flagged for a closer look

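A difference between the cultivars over the step was called by edgeR's quasi-likelihood test for 2100 genes, and the 6 largest annotated in each direction are given here as log2 differences, HY9115 minus HY33. Ah11g053300 had 0 counts in HY9115 at 12 h and 1.64, 1.11 and 1.08 FPKM at 24 h, at least 70-fold higher against a floor of 3 counts over the group, while HY33 held 4.23 to 7.47 FPKM at these times (fitted difference 9.72, which depends on the prior count). It is the gene that broke the cultivar pattern in the check of labels. The choline and ethanolamine kinase Ah18g364800, with 3 counts in HY9115 at 12 h, differed by 7.11, and by 6.68 to 7.93 with any 1 library left out. Ah13g313200, annotated to copper transport, had 9.16, 10.3 and 11 FPKM in HY9115 at 12 h and 13.2, 12.2 and 13.8 FPKM at 24 h. In HY33 it went from 4.91, 3.66 and 3.69 FPKM to 0, 0.1 and 0.17 FPKM, a difference of 5.70.

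The rRNA model Ah16g303200 (7.19) rested on single libraries: HY33 at 12 h had 70.7, 0.32 and 0.33 FPKM, and the difference was 1.06 (adjusted p = 0.83) without the first and 3.37 (adjusted p = 0.35) without replicate 1 of HY9115 at 24 h. Ah15g041600, annotated as a prolyl hydroxylase (5.94), differed by 4.26 (adjusted p = 0.12) without replicate 2 of HY9115 at 24 h and by 5.09 (adjusted p = 0.052) without replicate 1 of HY33 at 12 h. The beta-galactosidase Ah18g301700 (5.51) held at most 0.39 FPKM in HY9115 at 12 and 24 h, and it lost its call in 7 of the fits that left out a library.

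In the other direction the rRNA models Ah17g263200, Ah01g243800 and Ah17g261700 differed by -5.30, -4.81 and -4.76, and the last lost its call without replicate 2 of HY33 at 24 h (-3.34, adjusted p = 0.15), as did Ah01g243800 (-3.86, adjusted p = 0.055). The MYB factor Ah01g354500 differed by -4.31, with at most 0.6 FPKM in HY33 at 12 and 24 h. Ah01g342900 differed by -3.90, and by -3.99 with DESeq2, where its adjusted p was 0.069, and it also lost its call without replicate 3 of HY9115 at 24 h or replicate 1 of HY33 at 12 h (-3.49 and -3.37). Ah14g345100, a GABA transporter, differed by -3.75, falling in HY9115 from 1.44, 1.34 and 1.45 FPKM to 0.35, 0.19 and 0.21 FPKM and rising in HY33 from 3.74, 5.11 and 3.4 FPKM to 9.83, 8.26 and 10.7 FPKM.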

How the results depend on the processing

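The total counts of called genes for the step and for the difference were within 1.5 times the reported ones under the other scalings, DESeq2 and the smaller fits, whereas TPM scaling moved the split of the difference to 2315 higher and 453 lower. With at least 5 FPKM in 3 libraries, 1417 genes were called for the step (659 higher, 758 lower) and 1205 for the difference (700 and 505), from fewer genes tested. Without a fold limit 12777 genes passed (6357 and 6420), and at a log2 change of at least 2, 484 did (222 and 262). TPM scaling also raised the lists with a median above 0 from 30 to 48 of 62. Leaving out 1 library gave 2243 to 2534 genes for the step (938 to 1134 higher, 1195 to 1485 lower), 1662 to 2461 for the difference (958 to 1430 and 613 to 1031) and 23 to 32 such lists. The median changed sign in 27 of 62 lists under at least 1 of the 3 other scalings, all with a reported median within 0.12 of 0, so lists near 0 have no settled direction. The larger medians to change sign were those of glutathione S-transferases (0.00 with TPM scaling) and of the cutin, suberin and wax pathway (0.02 with TPM scaling, 0.01 at 5 FPKM). That of abscisic acid metabolism was -0.27 at 5 FPKM; the cause was not tested. Of 165 called named genes, 17 lost the call under at least 1 alternative and 0 reversed.

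With the replicate number as a block, 2348 genes were called for the step (1045 and 1303) and 2074 for the difference (1229 and 845). Same-numbered 12 h and 24 h libraries did not deviate together (r across genes of -0.0217, -0.022 and -0.0175). No shared effect of the replicate number was thus seen, which does not show whether the samples were collected in pairs. Depth limited genes near 0 counts, whose folds are given as ratios with intervals or bounds.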

Other observations

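Pyruvate phosphate dikinase, which regenerates phosphoenolpyruvate from pyruvate, went down in 3 genes while malic enzyme rose. Ah01g368600 had 30.6, 36.9 and 18.2 FPKM at 12 h and 8.02, 7.27 and 10.6 FPKM at 24 h, without overlap (log2 change -1.79 ± 0.22, adjusted p = 1.3e-07 by edgeR). Its change in HY33 was 0.29, a difference of -2.08 ± 0.31 (adjusted p = 1.6e-05). Ah11g416900 fell by 2.16 on the log2 scale, with a difference of -2.19 ± 0.35 from HY33, whereas its chromosome neighbour Ah11g416700 fell in both cultivars, by 1.39 and 1.66. Phosphoenolpyruvate carboxylase Ah07g328700 rose from 6.28, 6.59 and 4.17 FPKM to 16, 13.7 and 17.8 FPKM.

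Of 90 jasmonate and oxylipin genes 5 fell, and none rose by edgeR or DESeq2, with 16 higher at an unadjusted p under 0.05. The most abundant of the 5, the 9-lipoxygenase Ah09g071200, fell from 10.6, 13.7 and 12.1 FPKM to 5.6, 4.87 and 3.26 FPKM. Of 25 diterpenoid genes, the group that includes gibberellin synthesis, 4 rose (16%) and 1 fell. Among the 4 the gibberellin 20-oxidase type gene Ah15g526500 rose from 3.78, 2.57 and 5.4 FPKM to 12.6, 13.5 and 16.7 FPKM. It was still under its 0 h mean of 47.1 FPKM. In the separate list of 31 gibberellin genes it was the only gene that rose, and 1 fell. Of 176 ribosome biogenesis genes none was called by edgeR or DESeq2. At an unadjusted p under 0.05, 53 were higher and 2 lower, with a median log2 change of 0.11. Over all 42311 genes at least 6357 were higher and 6420 lower at that limit, the numbers that passed the adjusted p.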
